A study of Homo sapiens with 10 samples.

Results

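The epidermal growth factor (EGF) receptor family was read out in human kidney tubular cells 7 days after irradiation, through 10 genes: the 7 ligands of the EGF receptor (AREG, EREG, HBEGF, TGFA, EGF, BTC and EPGN) and the 3 receptors EGFR, ERBB2 and ERBB3. Members were taken by gene symbol from the count matrix and make up 10 of its 61587 gene rows. Of them, 9 reached the minimum of 200 counts over all samples, as did 19006 genes in total, and EPGN did not. RPTEC/TERT1 cells, a line of human renal proximal tubular epithelial cells immortalised with telomerase, were exposed to 10 Gy of gamma irradiation (n = 5) or mock-irradiated as controls (n = 5), and polyA RNA was sequenced on day 7. All samples come from 1 cell line, and the medium that the study's methods give for this line held recombinant human EGF protein, with no difference between groups stated. Replicates are numbered 1 to 5 in each group. The cell line field of the labels changes its final number from sample to sample, while the series' own design text names RPTEC/TERT1 for all, and the latter is followed here.

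Ligands of the EGF receptor are made as membrane-anchored precursors and are cut free by metalloproteases, after which they act on the same cell or its neighbours. A bound receptor pairs with a second EGFR or with another member of the family, its tyrosine kinase is switched on, and adaptor proteins carry the signal to RAS and on to the kinase ERK. ERBB2 binds no known ligand and serves as a partner, ERBB3 has a very weak kinase and is itself bound by neuregulins. EGF, TGFA, AREG and EPGN bind EGFR, and HBEGF, EREG and BTC bind ERBB4 as well. In the kidney this pathway is known for its part in tubular repair and, when sustained, in fibrosis.

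The family is defined by the EGF-like motif, in which 6 cysteines form 3 disulphide bonds. The coding bases from the first to the last of these cysteines are shown because they are what the 7 ligand genes have in common and what places them in 1 family. They were read from the GRCh38 genome along the GENCODE canonical transcripts, 5′ to 3′, with the 6 cysteine codons in capitals.
HBEGF: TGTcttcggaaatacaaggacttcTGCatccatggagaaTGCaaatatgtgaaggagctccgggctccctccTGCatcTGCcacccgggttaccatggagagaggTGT
TGFA: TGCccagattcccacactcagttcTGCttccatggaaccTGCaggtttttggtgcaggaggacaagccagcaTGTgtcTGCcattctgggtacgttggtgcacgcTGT
AREG: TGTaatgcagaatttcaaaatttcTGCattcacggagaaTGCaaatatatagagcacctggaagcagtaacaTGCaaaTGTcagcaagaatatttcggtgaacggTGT
EREG: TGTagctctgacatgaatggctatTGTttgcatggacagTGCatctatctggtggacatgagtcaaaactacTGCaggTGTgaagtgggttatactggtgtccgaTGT
BTC: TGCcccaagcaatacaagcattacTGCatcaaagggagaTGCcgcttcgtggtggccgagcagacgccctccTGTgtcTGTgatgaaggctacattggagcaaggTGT
EGF: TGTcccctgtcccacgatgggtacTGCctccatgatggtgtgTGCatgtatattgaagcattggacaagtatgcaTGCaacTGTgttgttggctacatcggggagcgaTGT
EPGN: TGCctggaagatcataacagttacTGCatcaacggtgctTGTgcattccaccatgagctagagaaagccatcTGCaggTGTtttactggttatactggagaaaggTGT

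In each of the 7 genes the motif was split between a pair of neighbouring exons, exons 3 and 4 in all but EGF, where it lay in exons 20 and 21. It ran over 108 bases in 6 ligands and 111 in EGF. Base identity between ligands over the 108 bases compared ranged from 46.3% (EREG with TGFA) to 63.0% (TGFA with BTC). Over this stretch no ligand was near-identical to another.

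The genes of EPGN, EREG, AREG and BTC lie side by side on chromosome 4 (GRCh38, from 74308470 to 74794523) and are the 4 protein-coding genes of the GENCODE annotation within this span of 486.1 kb. EGF is on the same chromosome at 109912883 to 110013766, HBEGF on chromosome 5 at 140332843 to 140346603 and TGFA on chromosome 2 at 70447284 to 70554193. EGFR is on chromosome 7 at 55019017 to 55211628, ERBB2 on chromosome 17 at 39687914 to 39730426 and ERBB3 on chromosome 12 at 56076799 to 56103505. Exons of other genes on the opposite strand covered 6.93% of the exon length of ERBB2, 1.17% of that of EGFR and none of the other members' exons.

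Counts on genes ranged from 66269311 in irradiated replicate 2 to 131555873 in control replicate 2. CDKN1A, which encodes the p53-induced cell cycle inhibitor p21, stood at 102 ± 59.3 CPM (counts scaled to library size after TMM normalisation, mean ± SD) in controls and 699 ± 69.0 in irradiated samples, with no overlap. Each of the 9 kidney epithelial markers exceeded a mean of 1 CPM, but of the 9 proximal tubule markers 4 did (ANPEP, CUBN, GGT1 and AQP1), while LRP2 had 17 counts and HNF4A 12 counts in all 10 samples together. Of the markers of other segments, SLC12A1, the sodium-potassium-chloride carrier of the loop of Henle, was at 178 ± 125 CPM in controls and 60.9 ± 62.4 in irradiated samples, and UMOD at 0 counts. None of 4 leucocyte markers exceeded 1 CPM, and the summed endothelial markers were between 1.28 and 2.40 CPM in controls and between 4.17 and 6.08 in irradiated samples. The summed fibroblast and smooth muscle markers lay between 19.8 and 27.1 CPM in controls and between 33.7 and 45.6 in irradiated samples, with COL3A1 at 4 counts in all samples together. The part of these differences in the results below was not tested. Control replicates 1 and 3 stood apart from the other controls: 8 proliferation genes summed to 189 and 178 CPM there, to between 528 and 567 in control replicates 2, 4 and 5, and to between 58.5 and 101 in the irradiated samples. Results are therefore also given without replicate numbers 1 and 3. That fit rests on numbers 2, 4 and 5, of which 4 and 5 were the most alike in each group, so its p-values may be too small.

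The question put to the members was whether RNA for the ligands and receptors differed between irradiated and mock-irradiated RPTECs. Of the 6 ligands tested, 5 were higher after irradiation (EREG, HBEGF, TGFA, AREG and BTC) and 1, EGF, was lower, with a median log2 fold change of 0.99. Of the 3 receptors, EGFR was slightly higher, ERBB2 lower and ERBB3 not called, with a median of 0.10. In all, 6 of 9 tested members were higher and 2 lower, against 23.9% and 22.7% of all genes tested, and 46.6% of genes were called in either direction. The median over all 19006 genes tested was -0.01. The levels of the groups did not overlap for 5 of the 9 members, against 26.7% of all genes. These member counts and the ligand median include EREG, which passed the minimum mainly through its irradiated samples (192 counts, against 26 in controls). A call means that edgeR's quasi-likelihood test gave an adjusted p below 0.05, with replicate number as a block and Benjamini-Hochberg adjustment over all genes tested. Nothing in the labels says that replicates were separate cultures, so these p-values measure the spread between the samples, which may in part be technical. In bulk RNA, a change in the share of cells that express a gene cannot be told apart from a change in RNA per cell.

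**Figure D1:**
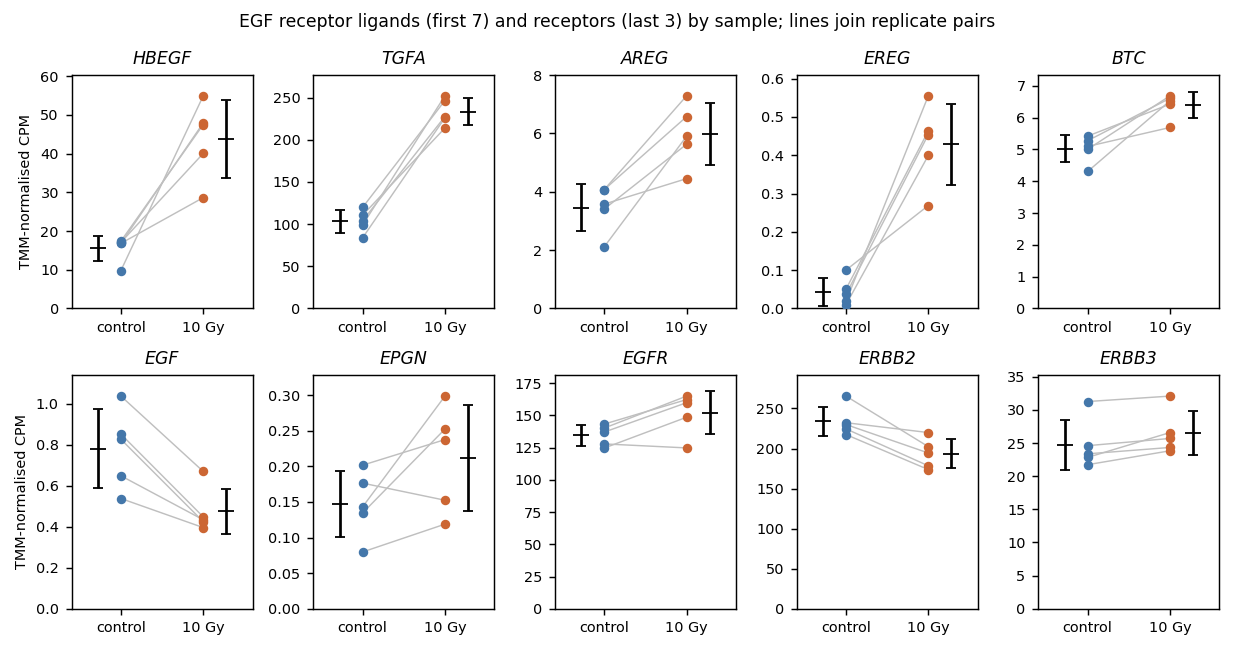
TMM-normalised CPM of the 10 members in each control and irradiated (10 Gy) sample, on linear axes from 0 that differ between genes. Points are samples, grey lines join samples with the same replicate number, and black bars show the mean ± SD (n = 5). HBEGF, TGFA, AREG, EREG and BTC lay higher in all irradiated samples than in any control, whereas EGF and ERBB2 fell in 5 of 5 pairs with overlapping groups.

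HBEGF encodes heparin-binding EGF-like growth factor, a ligand of EGFR and ERBB4. It was at 16.8, 16.8, 9.80, 17.4 and 17.1 CPM in control replicates 1 to 5. In irradiated replicates 1 to 5 it was at 47.9, 28.6, 54.9, 47.5 and 40.0 CPM. Control replicate 3 was the lowest control and irradiated replicate 3 the highest irradiated sample, and the groups did not overlap. The mean rose from 15.6 ± 3.24 to 43.8 ± 9.98 CPM, a log2 fold change of 1.48 (SE 0.21, adjusted p = 0.00104, edgeR), or 2.79-fold. Without replicate numbers 1 and 3 the log2 fold change was 1.14 (adjusted p = 0.000501, edgeR).

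TGFA encodes transforming growth factor alpha, a ligand of EGFR with a motif that shared 58.3% of its bases with that of EGF. Its levels in controls were 83.8, 111, 99.1, 119.9 and 104 CPM. After irradiation they were 226, 214, 252, 247 and 228 CPM. Every irradiated sample exceeded every control, and TGFA had the smallest standard error of the 6 ligands tested. The mean rose from 104 ± 13.5 to 233 ± 15.7 CPM, with a log2 fold change of 1.18 (SE 0.08, adjusted p = 3.85e-05, edgeR), or 2.27-fold. Without replicate numbers 1 and 3 it was 1.02 (adjusted p = 2.86e-05, edgeR).

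AREG encodes amphiregulin, a ligand of EGFR. It was measured at 2.12, 3.58, 4.08, 4.08 and 3.41 CPM in controls. In irradiated samples it was measured at 5.90, 4.45, 7.29, 6.58 and 5.63 CPM. The groups did not overlap, though irradiated replicate 2 was close to the highest controls. The log2 fold change was 0.80 (SE 0.15, adjusted p = 0.00398, edgeR), from 3.45 ± 0.80 to 5.97 ± 1.07 CPM. Without replicate numbers 1 and 3 it was 0.56 (adjusted p = 0.00599, edgeR).

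EREG, which encodes epiregulin, was present at very few reads. Controls held 3, 14, 1, 2 and 6 counts. Irradiated samples held 45, 18, 37, 51 and 41 counts. The 5 controls together held 26 counts and the irradiated samples 192, and control replicate 2, the most deeply sequenced library, had 14 of these 26 control counts. In normalised terms controls lay between 0.00997 and 0.10 CPM and irradiated samples between 0.269 and 0.555 CPM, without overlap. The fitted log2 fold change was 3.19 (SE 0.45, adjusted p = 0.000985, edgeR), the largest of the members, and its size depends on those few control reads. With 218 counts in all, EREG passed the minimum mainly through the group in which it was high. It fell below the minimum whenever a replicate number was left out and then could not be tested.

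BTC encodes betacellulin, a ligand of EGFR and ERBB4. Its control levels were 4.31, 5.09, 5.27, 5.00 and 5.42 CPM. Its irradiated levels were 6.53, 5.69, 6.61, 6.68 and 6.42 CPM. The change was small, but the groups did not overlap, with irradiated replicate 2 nearest to the controls. The log2 fold change was 0.35 (SE 0.09, adjusted p = 0.0125, edgeR), and 0.26 (adjusted p = 0.0459, edgeR) without replicate numbers 1 and 3. Without replicate 4 it was 0.33 and no longer called (adjusted p = 0.0525, edgeR).

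EGF itself was scarce. Control replicates 1 to 5 had 0.648, 0.851, 1.04, 0.826 and 0.538 CPM. Irradiated replicates 1 to 5 had 0.434, 0.448, 0.670, 0.425 and 0.396 CPM. Irradiated replicate 3 lay within the control range, so that the groups overlapped, but the irradiated sample was the lower in 5 of 5 pairs. The log2 fold change was -0.71 (SE 0.13, adjusted p = 0.00358, edgeR), from 0.780 ± 0.193 to 0.474 ± 0.111 CPM, and -0.80 (adjusted p = 0.0124, edgeR) without replicate numbers 1 and 3. These levels rest on 30 to 119 counts per library. They concern the transcript and not the EGF protein of the medium.

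EPGN encodes epigen, a ligand of EGFR. It had 173 counts and was not tested at the minimum of 200. Its counts were 11, 20, 8, 19 and 24 in controls. They were 25, 20, 11, 14 and 21 in irradiated samples. The groups overlapped, and in a fit that kept every gene with at least 1 count the log2 fold change was 0.47 (SE 0.26, adjusted p = 0.269, edgeR), with 4 of 5 pairs higher. No difference was called for EPGN in that fit, and the part of depth in this was not tested.

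Among the receptors, EGFR showed a small difference that hung on the processing. Controls were at 137, 128, 125, 143 and 140.2 CPM. Irradiated samples were at 159.9, 125, 149, 162 and 165 CPM. Irradiated replicate 2 lay at the bottom of the control range, and 4 of 5 pairs were higher. The log2 fold change was 0.17 (SE 0.05, adjusted p = 0.0300, edgeR), from 135 ± 7.98 to 152 ± 16.5 CPM. It lost its call in 10 of the 14 alternatives, among them the model without the replicate block (0.18, adjusted p = 0.103, edgeR) and the fit without replicate numbers 1 and 3 (0.11, adjusted p = 0.182, edgeR).

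ERBB2 was at 265, 232, 229.9, 217 and 225 CPM in controls. In irradiated samples it was at 202, 219.9, 194, 174 and 178 CPM. It was lower in 5 of 5 pairs, although irradiated replicate 2 lay above the lowest control. The log2 fold change was -0.27 (SE 0.05, adjusted p = 0.00475, edgeR), and -0.26 (adjusted p = 0.0121, edgeR) without replicate numbers 1 and 3.

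ERBB3 was at 24.6, 22.8, 31.3, 23.4 and 21.7 CPM in controls. It was at 25.7, 26.6, 32.1, 24.3 and 23.8 CPM in irradiated samples. The number 3 pair was the highest in both groups. The irradiated sample was above its control in 5 of 5 pairs, but the log2 fold change of 0.10 (SE 0.05, adjusted p = 0.114, edgeR) did not pass the test.

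**Figure D2:**
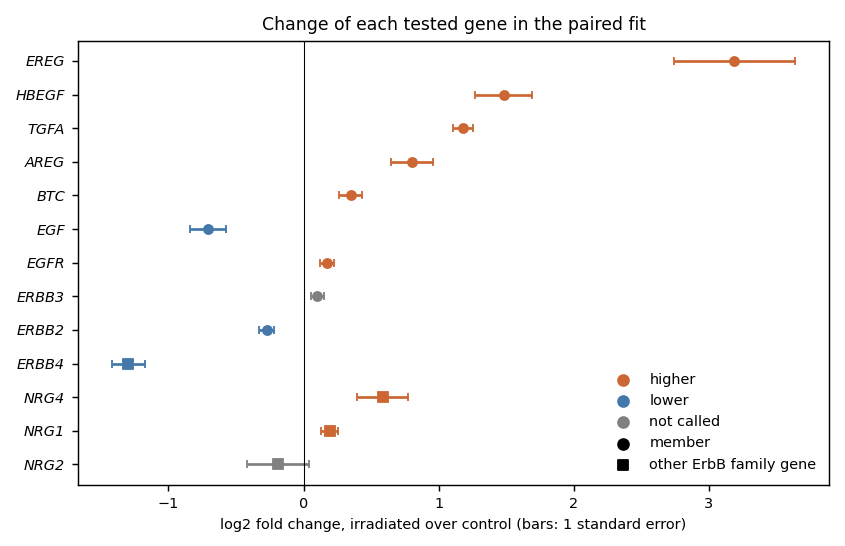
Fitted log2 fold change of irradiated over control samples for the 9 tested members (circles) and 4 other genes of the family (squares), with bars of 1 standard error. Orange marks genes called higher, blue genes called lower and grey genes not called. Ligands run from -0.71 for EGF to 3.19 for EREG, the 3 member receptors lie between -0.27 and 0.17, and ERBB4 is at -1.30.

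The samples with the lowest and highest values were often the same across members. Irradiated replicate 2, the library with the fewest counts, was the lowest irradiated sample for 6 of 9 tested members (AREG, EREG, HBEGF, TGFA, BTC and EGFR), and irradiated replicate 3 was the highest for 5 (AREG, HBEGF, TGFA, EGF and ERBB3). In the controls, replicate 1 was the lowest for AREG, TGFA and BTC, and replicate 3 for EREG, HBEGF and EGFR.

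Of the fourth receptor and the neuregulins, its ligands, 2 of 4 tested genes were higher and 1 was lower, where 46.6% of all genes were called. ERBB4, the receptor that HBEGF, EREG and BTC also bind, was at 93.2, 58.4, 60.2, 48.5 and 51.0 CPM in controls. It was at 34.2, 33.6, 17.8, 20.1 and 22.0 CPM in irradiated samples. Every irradiated sample lay below every control, and the log2 fold change was -1.30 (SE 0.12, adjusted p = 0.000151, edgeR). NRG4, with 207 counts in all, was higher by a log2 fold change of 0.59 (adjusted p = 0.0347, edgeR), and 38.2% of its exon length lay under exons of the opposite strand. The call was lost in 4 of the 8 alternatives in which NRG4 was tested, among them DESeq2 (0.59, adjusted p = 0.222). NRG1 was higher by 0.19 on the log2 scale (adjusted p = 0.0405, edgeR), a call that was lost in 10 of 14 alternatives. NRG2 was not called (log2 fold change -0.19, adjusted p = 0.524, edgeR), but its pair with number 3 went the other way from the other 4 pairs, and without replicate numbers 1 and 3 the value was -0.62 (adjusted p = 0.00026, edgeR). NRG3 had 16 counts in all samples together and was not tested.

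To set the levels of different genes side by side, CPM were divided by the joined exon length of each gene in kilobases (CPM per kb). ERBB2 and TGFA were the most abundant members in controls, at 22.7 ± 1.79 and 21.0 ± 2.74 CPM per kb, and their sample ranges overlapped. After irradiation TGFA was at 47.5 ± 3.20 and ERBB2 at 18.8 ± 1.81 CPM per kb, with ranges that did not overlap. EGFR followed in controls at 8.45 ± 0.501 CPM per kb, above HBEGF at 5.21 ± 1.08. In irradiated samples HBEGF stood at 14.6 ± 3.34 and EGFR at 9.54 ± 1.04 CPM per kb, and their ranges overlapped. ERBB3, AREG and BTC lay together in controls at 2.11, 2.10 and 1.89 CPM per kb, and at 2.26, 3.64 and 2.41 after irradiation. EGF, EPGN and EREG were each near or under 0.1 CPM per kb in both groups. ERBB4, at 4.79 ± 1.38 CPM per kb in controls and 1.96 ± 0.597 in irradiated samples, was above ERBB3 in controls on this scale. The distances between genes depended on the length used. With the canonical transcript in place of joined exons, ERBB2 stood at 51.3 and TGFA at 25.1 CPM per kb in controls, with ranges of 47.7 to 58.2 and 20.4 to 29.1 that did not overlap, and at 42.5 and 56.7 in irradiated samples. ERBB3 was then at 4.41 CPM per kb in controls, above AREG at 2.8 and BTC at 1.89, and in irradiated samples at 4.72, above ERBB4 at 2.11. The order of the 10 members was the same in controls with either length, and in irradiated samples BTC and ERBB3 changed places.

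Summed over the 7 ligands, controls 1 to 5 held 25.7, 32.4, 28.1, 34.7 and 31.1 CPM per kb. Irradiated samples 1 to 5 held 68.3, 58.1, 76.8, 72.8 and 65.7 CPM per kb. The groups were well apart, at 30.4 ± 3.57 and 68.3 ± 7.09 CPM per kb, a ratio of 2.25. TGFA supplied most of the sum in both, 69.1% in controls and 69.7% in irradiated samples. HBEGF supplied 17.2% and 21.2%, with ranges of 11.7% to 21.9% and 16.5% to 23.9% that overlapped. The share of AREG was 6.88% in controls and 5.29% in irradiated samples, and that of BTC 6.26% and 3.54%, so BTC rose in level and yet made up less of the sum. EREG, with the largest fold change, supplied 0.0246% of the sum in controls and 0.109% after irradiation.

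**Figure D3:**
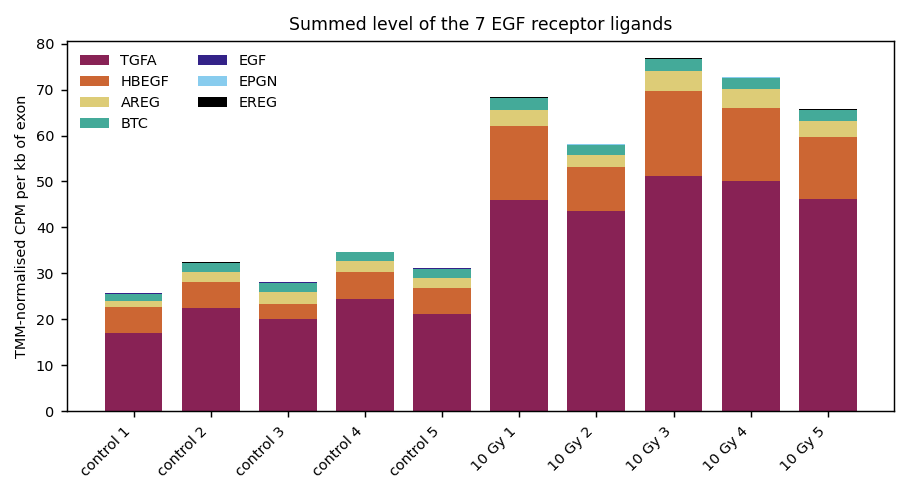
Stacked bars of the 7 EGF receptor ligands in each sample, in TMM-normalised CPM per kb of joined exons, for control replicates 1 to 5 and irradiated (10 Gy) replicates 1 to 5. The irradiated bars reach 58.1 to 76.8 against 25.7 to 34.7 in controls, and TGFA with HBEGF fill most of every bar.

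Genes whose profile over the 10 samples was most like that of a member were found by the root mean square difference of log2 CPM, each gene centred on its own mean, among 12830 genes with a mean of at least 1 log2 CPM. This is a description over 10 samples, and the 2 groups account for much of the shape. TGFA was nearest to IL18 (difference 0.071) and MET (0.075), HBEGF to TNFRSF11A (0.099) and ATF5 (0.107), and AREG to AP1S3 (0.134) and MT1L (0.142). BTC was nearest to SLC25A51 and MTPN, EGF to BDH1 and BLACAT1, ERBB2 to ZNF446 and ZNF580, and ERBB3 to PSENEN and BORCS6. The nearest genes of EREG, NAV3 and EDAR, differed from it by 0.551 and 0.592, where the spread of EREG about its own mean was 1.876 on this measure. That spread was 0.503 for AREG, and 0.459 for EGF, whose nearest genes differed by 0.224 and 0.228. The difference can grow with this spread, so it does not rank how close the matches of different members are.

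Genes that act around the ligands and receptors were read from lists by role. Genes of proteins that cut the ligands free or control that step were higher in 4 of 8 and lower in 1, with a median log2 fold change of 0.26. Of all genes tested, 23.9% were higher and 22.7% lower, with a median of -0.01. TIMP3, an inhibitor of the metalloproteases, was at 1.54 ± 1.16 CPM in controls and 16.4 ± 11.2 in irradiated samples (log2 fold change 3.39, adjusted p = 1.08e-05, edgeR). RHBDF2 (log2 fold change 0.999) and RHBDF1 (0.58) encode the iRhoms, which carry ADAM17 to the cell surface, and rose in 5 of 5 pairs. FRMD8, which stabilises the iRhoms, rose by 0.39. ADAM17, the main sheddase of TGFA, AREG, HBEGF and EREG, was lower in 5 of 5 pairs (log2 fold change -0.24, adjusted p = 0.0340, edgeR), from 61.6 ± 8.06 to 51.9 ± 3.55 CPM, with control replicate 3 the highest at 74.4. This call was lost in 4 of 14 alternatives, and 11.7% of the exon length of ADAM17 lay under exons of the opposite strand. The genes that rose thus included both an inhibitor of shedding and carriers of the sheddase.

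Of the adaptors and kinases between the receptor and ERK, 4 of 17 were higher and 5 lower, with a median of -0.06. These counts are near the shares over all genes, 23.9% higher and 22.7% lower. The highest were SHC1 (log2 fold change 0.34), HRAS (0.26) and MAP2K1 (0.23). The lowest were MAPK3 (-0.70), which encodes ERK1, ARAF (-0.32) and SOS2 (-0.25). The call of SOS2 was lost in 5 of 14 alternatives, and without replicate numbers 1 and 3 its log2 fold change was -0.12 (adjusted p = 0.0588, edgeR). With library sizes alone as the scaling the counts were 2 higher and 9 lower, and 38.0% rather than 51.4% of all called genes were higher.

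Genes that restrain the receptors were higher in 3 of 12 tested and lower in 3, with a median of 0.01, and CBLC, at 3 counts, was not tested. These counts too are near the shares over all genes, 23.9% and 22.7%. ERRFI1, an inhibitor of the EGFR kinase that is itself induced by the pathway, rose from 49.1 ± 6.58 to 82.7 ± 6.10 CPM (log2 fold change 0.76, adjusted p = 6.41e-05, edgeR). The receptor phosphatase PTPRJ rose by 0.70, and the ubiquitin ligase STUB1 by 0.22. The ubiquitin ligase CBLB fell from 166 ± 42.7 to 75.6 ± 17.4 CPM (log2 fold change -1.13, adjusted p = 0.000478, edgeR). SOCS5 (-0.19) and CBL (-0.15) fell slightly, and these calls were lost in 6 and 8 of 14 alternatives.

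Genes widely used as a readout of ERK activity were higher in 10 of 17 and lower in 2, against 23.9% and 22.7% of all genes, with a median log2 fold change of 0.46 against -0.01 over all genes. DUSP6, a phosphatase of ERK that the pathway induces, was at 20.1, 38.0, 16.3, 32.1 and 30.6 CPM in controls. It was at 85.7, 79.6, 102, 76.9 and 80.6 CPM in irradiated samples. The groups did not overlap and the log2 fold change was 1.68 (SE 0.22, adjusted p = 0.000728, edgeR). CCND1, the cyclin of early G1, was higher by 1.63 (adjusted p = 0.000344, edgeR) and the AP-1 subunit FOSL1 by 1.44 (adjusted p = 0.00562, edgeR). DUSP4 (1.07), DUSP5 (0.85), EPHA4 (0.82), EPHA2 (0.69), PHLDA1 (0.51), SPRY1 (0.46) and IER3 (0.27) were also higher, the call of SPRY1 being lost in 7 of 14 alternatives. EGR1 (-0.23) and SPRED2 (-0.13) were lower, calls that were lost in 6 and 8 of 14 alternatives, both of them without the replicate block (adjusted p = 0.666 and 0.120, edgeR), and ETV4 (log2 fold change 0.10), ETV5 (0.39), SPRY2 (-0.07), SPRY4 (0.01) and SPRED1 (0.13) were not called. Control replicates 1 and 3, which had low proliferation gene sums, were also the lowest controls for every gene of this list but DUSP4, PHLDA1 and IER3. Without these numbers 9 genes of the list were called higher and 5 lower. The log2 fold change was then 1.22 for DUSP6, 0.85 for FOSL1 and 0.14 for SPRY1, which was no longer called (adjusted p = 0.113, edgeR). SPRY2 was then called lower (-0.24, adjusted p = 0.00437, edgeR). The part of proliferation in these values was not tested. Exons of the opposite strand covered 28.6% of the exon length of DUSP6, 10.4% of that of CCND1, 38.9% of that of IER3, 42.5% of that of STUB1 and 20.5% of that of MAP2K1, where reads may be lost or shared.

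**Figure D4:**
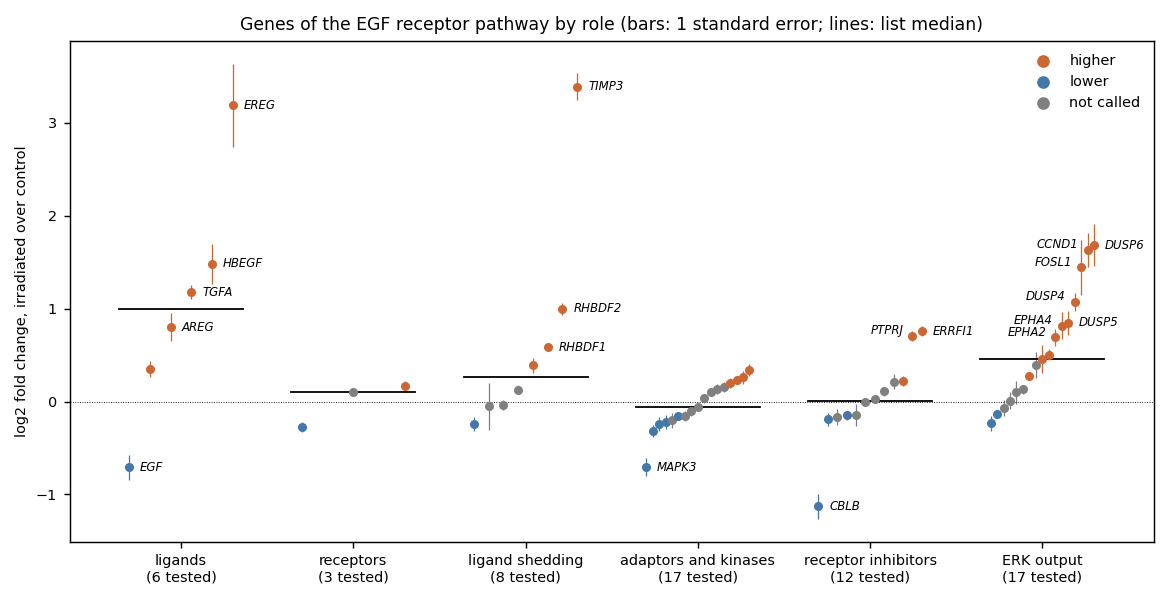
Fitted log2 fold change (irradiated over control) of each tested gene of the pathway, grouped by role, with bars of 1 standard error and a black line at each list's median. Orange, blue and grey mark genes called higher, called lower and not called. Medians were 0.99 for ligands, 0.10 for receptors, 0.26 for shedding, -0.06 for adaptors and kinases, 0.01 for receptor inhibitors and 0.46 for ERK output. The ligand median includes EREG, which passed the minimum mainly through its irradiated samples.

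The bases before the RefSeq starts of the members' transcripts were searched on both strands for 4 short motifs, because several ligands moved together. The window was the 250 bases upstream of the RefSeq start (GRCh38.p14), with entries for 9 of the 10 members, ERBB3 being the other. The RefSeq starts of TGFA and ERBB2 and the second start of EGFR lay inside the GENCODE gene spans given above. Their windows therefore lay within the gene, in part for ERBB2 and wholly for the others. Among all 35116 promoters the window held the AP-1 motif TGANTCA in 6.57%, the cAMP response element TGACGTCA in 1.65%, the GC box GGGCGG in 42.6% and TATAAA in 10.7%. The last 100 bases are printed for 3 of the ligands that rose, with matches in capitals.
AREG: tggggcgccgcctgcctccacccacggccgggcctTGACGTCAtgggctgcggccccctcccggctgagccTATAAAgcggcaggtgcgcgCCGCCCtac
EREG: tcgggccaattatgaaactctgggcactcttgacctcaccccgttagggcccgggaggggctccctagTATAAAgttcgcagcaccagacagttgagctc
HBEGF: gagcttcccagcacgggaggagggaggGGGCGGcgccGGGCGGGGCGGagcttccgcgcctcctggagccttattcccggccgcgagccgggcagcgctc

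These windows lie at chr4:74445036-74445135 on the plus strand for AREG, chr4:74365045-74365144 on the plus strand for EREG and chr5:140346604-140346703 on the minus strand for HBEGF. AREG held a cAMP response element, TATAAA and 1 GC box on the minus strand, and EREG held TATAAA. HBEGF held 5 GC boxes in its 250 bases, of which the last pair overlap by 1 base, and no TATAAA. TGFA held 3 GC boxes at the first of its starts, EPGN held TATAAA, and BTC held none of the 4 motifs. TGANTCA was found upstream of EGF, of ERBB2 and of the second start of EGFR, and not in the windows of HBEGF, TGFA, AREG, EREG or BTC. The ligands that rose thus shared no single one of these motifs, and a match in letters is not a measured binding site.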

How the data were processed

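The authors trimmed adapters, aligned reads to GRCh38 (hg38) with STAR and counted them per gene, and per the study's methods analysed them with DESeq2. The deposited values are raw counts per gene, without normalisation. The annotation release and use of strand are not given in the sources used here. Labels and methods name different library kits. Counts were analysed with edgeR 4.0.16 in R 4.3.3: TMM factors, glmQLFit and glmQLFTest, genes with at least 200 counts over 10 samples, replicate number as a block, adjusted p under 0.05. CPM use TMM-scaled library sizes. Dividing a log2 fold change by the root of its F statistic gave its standard error.

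Samples were paired by the replicate numbers in their titles, and the study also had replicate number in its model. Deviations from group means correlated at 0.22 to 0.50 for equal numbers (-0.34 to 0.30 for different ones). Number 2, at 0.22, lay within the range for different numbers. Deviations cancel within each group, so these correlations do not establish the pairing. No replicates agreed within sampling noise (chi-square per gene at least 6.83). Replicates 4 and 5 were by far the most alike in each group. They had 11.7 in controls and 6.83 in irradiated samples, where the other pairs had 42.2 to 163 and 30.9 to 71.3. Whether numbers 4 and 5 were independent of each other was not tested. Gene positions and exon lengths came from GENCODE and promoters from RefSeq. Members and lists were chosen with earlier results of these data known. Named genes were all members, the 3 largest called changes per direction of each list, other list members where a result turns on them, CDKN1A, and the 2 genes nearest to each tested member (for EGFR not reported here). FRMD8, the remaining ERK readout genes and the markers named were chosen after their values were seen. Alternatives were DESeq2 1.42.0, limma-voom (limma 3.58.1), 2 other scalings, 2 other filters, no replicate block, a test against 2-fold, each replicate number left out and, added after seeing the data, replicate numbers 1 and 3 left out and canonical transcript lengths. The fit was tested on simulated data. Figures were drawn with matplotlib 3.10.9.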

Additional observations from a re-analysis of the deposited data

Results flagged for a closer look

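Of 96 groups of 5 samples examined, 8 held 1 sample far from the other 4 by Dixon's criterion, where chance gives about 4.8. Among the members, HBEGF in control replicate 3 was low, with 9.80 CPM where the 4 remaining controls had 16.8 to 17.4, EGF in irradiated replicate 3 was high, at 0.670 against 0.396 to 0.448, and BTC in irradiated replicate 2 was low, at 5.69 against 6.42 to 6.68. ERBB4 in control replicate 1 was high, at 93.2 CPM against 48.5 to 60.2. PHLDA1 in control replicate 2 was low, at 322 CPM against 438 to 484. Control replicate 3 stood apart for 3 further genes of the pathway: RHBDF2 was high, at 48.9 against 36 to 39.7, TIMP3 was high, at 3.56 against 0.737 to 1.47, and HRAS was low, at 34.1 against 41.9 to 42.8. Without replicate number 3 the log2 fold change of HBEGF was 1.25 and that of EGF -0.73, both still called.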

How the results depend on the processing

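None of the 9 tested members changed direction in the alternatives that tested them, 8 for EREG and 14 for the others, and EPGN was fitted once. Of the pathway genes named, 2 that were not called did: SPRY4 (reported at 0.01) was at -0.02 with upper-quartile scaling, -0.07 with library size only, -0.03 with a minimum of 1 count, -0.02 without the replicate block, -0.16 without numbers 1 and 3 (called) and -0.09 to 0.08 with 1 number left out, and ETV4 (0.10) was at -0.16 without numbers 1 and 3 (called) and -0.04 to 0.17 with 1 number left out. Over the alternatives the log2 fold change ran from 1.14 to 1.67 for HBEGF, 1.02 to 1.25 for TGFA, 0.56 to 0.93 for AREG, 3.12 to 3.48 for EREG (8 alternatives), 0.26 to 0.40 for BTC, -0.80 to -0.64 for EGF and -0.35 to -0.24 for ERBB2. EGFR was no longer called with upper-quartile scaling (0.14), library size only (0.09), a minimum of 1 count (0.14), no replicate block (0.18) or numbers 1 and 3 left out (0.11), nor in 4 of 5 fits that left out a replicate (0.16 to 0.23 over all 5, adjusted p 0.00452 to 0.0957, edgeR). BTC ran from 0.29 to 0.40 when a replicate was left out.

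Tested against 2-fold, 540 genes were higher and 238 lower, 1 member (EREG) was higher and 0 lower, shedding genes 1 and 0, adaptors and kinases 0 and 0, receptor inhibitors 0 and 0, and ERK output 2 and 0. There HBEGF (1.48), TGFA (1.18), AREG (0.80), BTC (0.35), EGF (-0.71), EGFR (0.17) and ERBB2 (-0.27) were not called.

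ERK output genes called lower were 1 with DESeq2, 1 with a minimum of 1 count, 0 without the replicate block and 5 without numbers 1 and 3, where adaptors and kinases had 3 lower. With library size only adaptors and kinases had 2 higher and 9 lower, and receptor inhibitors had 1 lower without the replicate block. The other pathway counts with and without the block were within 1.5 times each other.

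With 1 replicate number left out, members called higher ran from 3 (without replicate 4: AREG, HBEGF and TGFA) to 5, since EREG was not tested. Genes called lower ran from 0 to 1 for shedding, 2 to 5 for adaptors and kinases, 1 to 2 for receptor inhibitors and 0 to 1 for ERK output, and receptor inhibitors called higher from 3 to 5. EREG, EPGN, EGF and NRG4 rest on the fewest counts, and what limits each gene's precision was not separated. The causes of these changes were not tested.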
